A study of Mus musculus with 12 samples.

Results

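Livers of Lcorl knockout (KO) mice whose sterol synthesis transcripts stood at wild-type (WT) levels were compared with livers of WT mice. They were chosen by a measured value: of 6 KO livers, the 3 with a normalized read count of Sqle of at least 1000 were taken, namely KO 3, KO 5 and KO 6. All 6 WT livers were kept, so the comparison holds 9 of the 12 livers profiled. Sqle encodes squalene epoxidase, an enzyme of cholesterol synthesis. Every mouse was a female aged 3 weeks, killed at weaning around 10 am, and total RNA of the frozen liver was sequenced. The KO mice carry the genotype Lcorl KO and the controls are WT. The labels do not say how the allele was made, which strain was used or whether the controls were littermates. Each library title holds a number of its own, read here as an animal number, which the titles do not call it.

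The nuclear protein made from Lcorl is a relative of the corepressor Lcor, and longer products of both genes are known to bind Polycomb repressive complex 2, which silences genes through histone methylation. The locus is known for its association with body size in several mammals. The liver at weaning is switching from milk fat to carbohydrate, with lipogenic enzymes rising and fetal transcripts such as Afp and H19 falling. It also makes hepcidin, the hormone that limits iron export, and binding proteins for insulin-like growth factors.

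Hamp and Hamp2 are neighbouring mouse hepcidin genes with nearly the same promoter, and their stretches before the start site are shown because both were among the low transcripts below. Both come from RefSeq on GRCm38.p6, the build mm10 of the deposited data, and are read on the minus strand, from 250 bases before the start site up to it. Capitals mark GGCGCC, the core of the bone morphogenetic protein (BMP) response element, and TTCNNNGAA, the palindrome that STAT factors bind, each searched on both strands.
Hamp2, chr7:30924182-30924431: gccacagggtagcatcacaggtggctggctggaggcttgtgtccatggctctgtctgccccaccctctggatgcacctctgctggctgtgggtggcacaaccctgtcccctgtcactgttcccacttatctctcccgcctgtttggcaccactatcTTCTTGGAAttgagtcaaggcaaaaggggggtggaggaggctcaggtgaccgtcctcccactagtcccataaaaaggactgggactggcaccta
Hamp, chr7:30944030-30944279: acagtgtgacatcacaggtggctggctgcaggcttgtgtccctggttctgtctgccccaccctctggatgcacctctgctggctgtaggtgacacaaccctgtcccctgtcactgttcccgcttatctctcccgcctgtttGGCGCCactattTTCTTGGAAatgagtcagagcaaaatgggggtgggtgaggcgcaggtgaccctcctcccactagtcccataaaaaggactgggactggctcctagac
Over windows of 300 bases, which run 50 bases past the start site, 276 of 297 aligned bases were the same (92.9%). The STAT palindrome begins 94 bases before the start in Hamp2 and 97 bases before it in Hamp. GGCGCC begins 109 bases before the start of Hamp and has no match in the Hamp2 window. Of 32851 such windows searched, 11.9% hold GGCGCC and 8.30% hold the STAT palindrome. The windows searched do not cover the whole genome or every gene tested. Of the genes past the threshold below, 44 have a window among them. The STAT palindrome was in 5 of these 44 (11.4%) and GGCGCC in 4 (9.09%). Of the 10126 tested genes with a window searched, 8.60% held the STAT palindrome and 23.7% held GGCGCC. A match describes letters and is no proof of binding.

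The rise with the largest read counts came from H19 and the microRNA gene Mir675 inside it, on chromosome 7 from 142577064 to 142577147. The mature products of Mir675 are shown with bases 2 to 8, the seed that pairs with targets, in capitals, and they share no seed. Total RNA libraries count reads over the hairpin and host and do not measure these mature forms.
mmu-miR-675-5p, chr7:142577112-142577133: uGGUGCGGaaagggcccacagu
mmu-miR-675-3p, chr7:142577078-142577099: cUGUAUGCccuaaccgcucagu

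The choice of livers left no KO value near the threshold. Normalized counts of Sqle were 3282, 3691 and 6021 in KO 3, KO 5 and KO 6. WT livers ran from 3779 to 5167, with a median of 4502. The other 3 KO livers lay between 151 and 159. The chosen KO livers therefore straddled the WT range, while the others stood far below it. The same held for 25 genes of sterol synthesis and uptake, which follow the choice and were given no test: 13 were higher and 12 lower than in WT, with a median log2 difference of 0.06. For all 25 the chosen KO livers overlapped the WT livers. The other KO livers lay outside the WT range for all 25, with a median of −2.33.

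**Figure D1:**
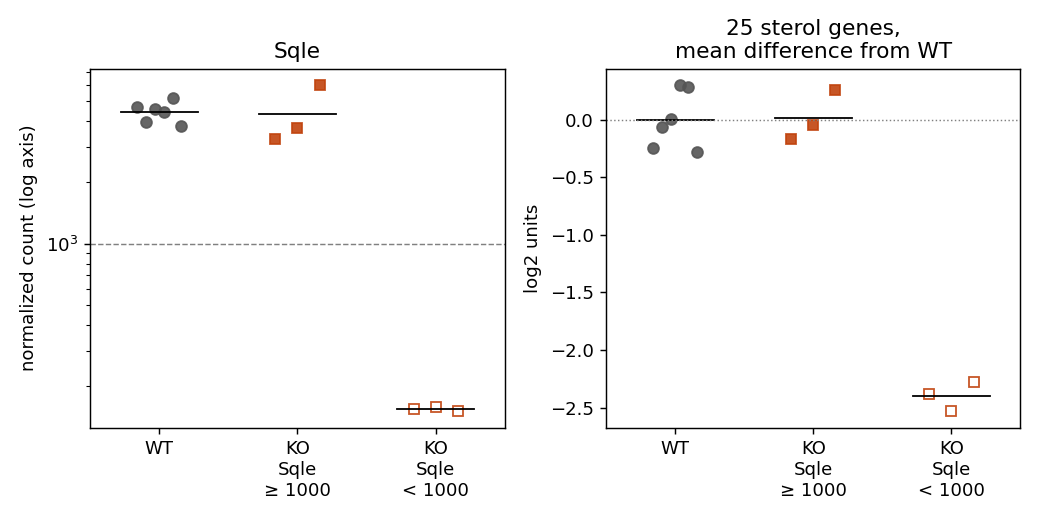
Left, Sqle normalized counts on a log axis in each liver, with the choice at 1000 as a dashed line; right, the mean log2 difference from the WT mean over 25 sterol genes, one point per liver. Bars are group means; for Sqle, KO 3 and KO 5 lie just under and KO 6 just over the 6 WT livers, for the list the 3 chosen KO livers lie within the WT range, and the other 3 KO livers are far below in both panels.

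WT libraries held 21769795 to 28655120 reads and chosen KO libraries 29517332 to 31296485, so every KO library was deeper (exact permutation p = 0.0833, two-sided, where 84 choices allow no p below 0.0238). Hepatocyte markers, 8 genes, had similar sums in WT (3691090 to 3952150) and KO (3465810 to 3996980), with 0 calls by limma, edgeR and DESeq2 and 1 gene at an unadjusted p under 0.05. Of 8 listed markers of fat tissue, Adipoq, Cfd and Plin1 measured 53.4, 101 and 30.5 in WT 6 and at most 0.975 in the other livers compared. The sum over the whole list, in which abundant members weigh most, went the other way. It was lowest among WT livers in WT 6, at 9912, and ran up to 22212 in WT 4. The mean log2 difference from the WT mean over the 3 tested members was instead highest in WT 6, at 1.57. It ran from −0.545 to −0.0352 in the other WT livers and from −0.613 to −0.139 in the chosen KO livers. Bulk tissue cannot tell fewer cells of a type from less RNA per cell.

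Averaged across the 9 livers, 13564 genes reached 10 normalized counts and were tested, and 61 of them differed between the chosen KO livers and WT (limma, Benjamini-Hochberg adjusted p under 0.05), which is 0.45%. Of these, 17 were higher (0.125%) and 44 lower (0.324%), and 58 differed by at least 1.5-fold (0.428%). Fold changes are KO over WT of log2(normalized count + 1), which understates changes of low genes. The KO and WT values did not overlap for any of the 61, which was so for 6.02% of all genes (2.92% higher in KO and 3.1% lower). All 61 had the same sign in the other 3 KO livers, and the log2 difference was larger there for 43. Since those livers share the WT controls, their values are given side by side only.

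Among the 61, for which the chosen KO livers already lay outside the WT range, all 6 KO livers did so on one side for 55. Over all genes tested, the chosen KO livers lay outside the WT range for 817. For 403 of these (2.97% of all genes) all 6 KO livers lay outside on one side. The numbers in the titles, read as animal numbers, fall into runs split at gaps of 10 or more, which the labels do not call batches. With the runs as a block, 6 of the 61 were still called by limma: Lcorl, Gm3414, Mup3, Hamp2, Wfdc2 and Slc25a4. WT 1 stood in run 1 and WT 2 and WT 3 in run 2, and neither run held a chosen KO liver. Within runs, the chosen KO livers were therefore compared with WT 4, WT 5 and WT 6 only. Effects of fewer controls and of the runs on the calls cannot be told apart. Leaving out single livers moved the count widely: 10 genes were called without KO 5, 24 without KO 3 and 27 without KO 6, of which 10, 18 and 20 were among the 61. The count was 28, 28 and 32 without WT 2, WT 3 or WT 5, and 227 without WT 6. WT 6 was the WT liver nearest to the KO values for 25 of the 61. Lcorl, Gm3414, Mup3, Hapln4, Mug2 and Cyp2j5 passed whichever liver was left out, but Hapln4, Mug2 and Cyp2j5 did not pass with the block (adjusted p = 0.0707, 0.0666 and 0.0666).

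**Figure D2:**
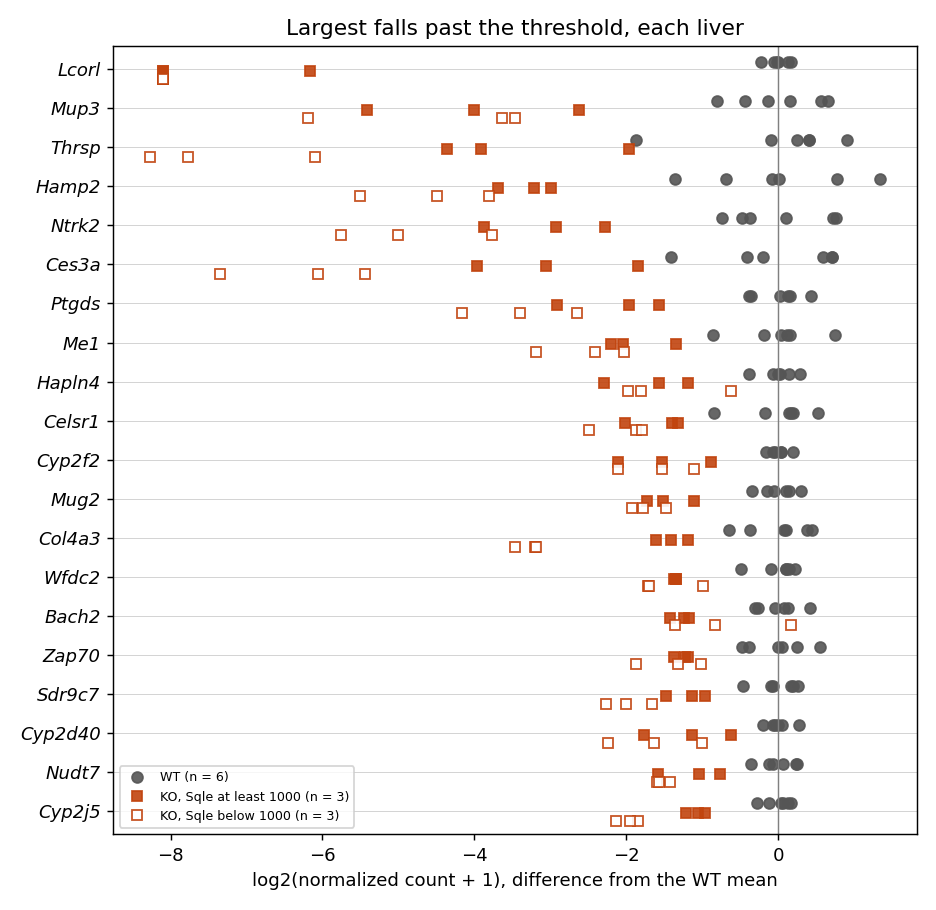
Each liver's log2(normalized count + 1) minus the WT mean, for the 20 largest falls past the threshold among named genes; circles are 6 WT livers, filled squares the 3 chosen KO livers and open squares the other 3 KO livers. The filled squares lie left of every circle in each row.

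The targeted transcript was all but absent. Lcorl, on chromosome 5 from 45697181 to 45857615 of GRCm38, measured 0, 2.83 and 0 normalized counts in KO 3, KO 5 and KO 6 and 234 to 308 in WT, with a median of 272. In reads, WT held 1594 and the chosen KO livers 3, all in KO 5. That is 0.328% of WT per read sequenced, and the exact 95% binomial bounds, covering counting error only, were 0.0676% and 0.961%. The log2 fold change was −7.46 (SE 0.37, adjusted p = 7.27e-06, limma). Gm3414, a noncoding RNA of the same locus, was absent from the chosen KO livers (0 reads, against 285 in WT), hence at least 54.5-fold lower when 3 reads over the group are taken as the floor. It was named by its place in the locus list, as were the neighbours. Ncapg, a condensin subunit gene that shares bases with the end of Lcorl on the other strand, measured 83.3, 74.4 and 68.5 in KO and 75.3 to 220 in WT, median 126. These ranges overlapped and the difference did not pass (log2 −0.74, adjusted p = 0.296), while the other KO livers lay at 11.9 to 33.1. Med28 and Lap3 did not pass (log2 0.04 and −0.16, adjusted p = 0.861 and 0.615). Without a stated strand setting, overlapping genes are uncertain. Of 14 tested genes of the Lcor family and Polycomb repressive complex 2, Lcorl alone passed. The Ezh2 methyltransferase had a log2 difference of −0.24 (adjusted p = 0.535).

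Hepcidin transcripts were low in the chosen KO livers. Hamp2 measured 962, 1561 and 1331 normalized counts in KO 3, KO 5 and KO 6, and 4836 to 31412 in WT with a median of 12102. No KO liver reached the lowest WT liver, and the other KO livers lay lower still, at 272 to 883. Hamp2 fell by 3.30 on the log2 scale, or 9.84-fold (SE 0.49, adjusted p = 0.0209, limma). Hamp, named after its values were seen, measured 276, 106 and 443 in KO and 1154 to 14398 in WT, median 10286. Its groups did not overlap either, but WT 2 and WT 3 (1154 and 1634) were far below the other WT livers, and the difference just missed the threshold (log2 −4.59, SE 0.85, adjusted p = 0.0527). It passed without WT 6 (adjusted p = 0.0448) and with all 6 KO livers (adjusted p = 0.0234). The Hamp2 call was lost without KO 3, KO 5 or KO 6 (adjusted p up to 0.0928) and held with all 6 KO livers (adjusted p = 0.00151). Near copies can exchange reads, so the pair is uncertain as single genes.

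Of 20 tested genes of hepcidin control by BMP and SMAD proteins, limma called Hamp2 lower and 0 higher. DESeq2, the block by runs and the fit with all 6 KO livers each called Hamp and Hamp2, and edgeR Hamp2. The list had a median log2 difference of −0.05, against 0.003 for all genes. Bmp6, the ligand, and Id1 and Smad7, targets of the pathway, gave log2 differences of −0.03, 0.12 and −0.22 (adjusted p = 0.981, 0.860 and 0.613). Among 13 genes of iron transport and storage, limma called 0, with 2 at an unadjusted p under 0.05 (15.4%, against 12.4% of all genes), edgeR 0 and DESeq2 1. Tfrc, the transferrin receptor, measured 3278, 5719 and 2238 in KO and 1036 to 2423 in WT, median 1841 (log2 0.98, adjusted p = 0.263). The other KO livers lay above the WT range, at 3409 to 6824. With all 6 KO livers Tfrc passed (limma, adjusted p = 0.0321).

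Thrsp and Me1, genes of fatty acid synthesis, fell in these livers with sterol genes at WT levels. All 19 genes of the list had a lower mean, with a median log2 difference of −1.02, and these 2 passed. Thrsp, known as Spot 14, a thyroid-responsive regulator of lipogenesis, measured 1376, 1872 and 7268 in KO 3, KO 5 and KO 6 and 7730 to 52883 in WT, median 35558. KO 6 lay just under WT 6, the lowest WT liver, and the next WT liver held 26616. Thrsp fell by 3.41 on the log2 scale (SE 0.62, adjusted p = 0.0493). Me1, malic enzyme, a source of NADPH for lipogenesis, measured 765, 684 and 1244 in KO and 1730 to 5269 in WT, median 3323, again lowest in WT 6. Its fall was 3.63-fold (log2 −1.86, SE 0.30, adjusted p = 0.0296). The other KO livers had 90.5 to 413 counts of Thrsp and 346 to 769 of Me1.

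The number of lipogenic genes called depended on the livers and the tool. edgeR called Me1, DESeq2 8 genes and the block by runs 0. With all 6 KO livers limma called 15, all lower, where 4.43% of all genes were called in either direction. DESeq2 and the fit without WT 6 also called more genes over all tested than the main fit. Without WT 6, 12 of the 19 genes passed, all lower: Acaca, Acacb, Acly, Acss2, Elovl6, Fads1, Fads2, Fasn, Me1, Mlxipl, Scd1 and Thrsp. Scd1, the main desaturase, measured 22204, 1213 and 15445 in KO and 33536 to 180138 in WT, median 94934, so the groups did not overlap, but the adjusted p was 0.107 with WT 6 and 0.0462 without it. Fasn, fatty acid synthase, measured 10822, 6442 and 12835 in KO and 10195 in WT 6, and ran up to 62465 in WT (adjusted p = 0.231, and 0.0315 without WT 6). The call of Me1 and that of Thrsp were both lost without WT 1, WT 2, WT 3, WT 5, KO 3 or KO 5, and that of Thrsp without WT 4 too (adjusted p up to 0.156 and 0.224). The fat-tissue transcripts of WT 6 are the values given above, and their part in the result was not tested. Genes that vary with Sqle among KO livers are also shaped by the choice of livers. With all 6 KO livers, which no measured value chose, the adjusted p was 0.00743 for Thrsp and 0.00181 for Me1.

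Of 13 thyroid hormone genes tested, limma called 4 lower (0.324% of all genes were) and 0 higher, with a median of −0.16. DESeq2 called the same 4, edgeR 2 of them, Gpd2 and Me1 (adjusted p = 0.0896 for Thrsp and 0.0516 for Dio1), and the block by runs 0. Thrsp and Me1 are among them as known targets of the hormone, and are also the 2 calls of the fatty acid synthesis list. The list was chosen with earlier results of these data known, so the share of all genes is no test of it. Dio1, the deiodinase that activates thyroxine, measured 3549, 3395 and 4174 in KO and 5542 to 8110 in WT, median 6263, a clear gap between the groups (log2 −0.82, SE 0.14, adjusted p = 0.0422). Gpd2, the mitochondrial glycerol phosphate dehydrogenase, measured 1200, 1277 and 1364 in KO and 1802 to 2304 in WT, median 1917 (log2 −0.63, SE 0.10, adjusted p = 0.0256). The receptor genes Thra and Thrb had log2 differences of 0.25 and −0.07 (adjusted p = 0.253 and 0.792). The Dio1 call was lost without any 1 liver other than WT 1 or WT 6 (adjusted p up to 0.198), and the Gpd2 call without WT 5, KO 3, KO 5 or KO 6 (up to 0.133).

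Pygl, Rpe, Apoc3 and C730036E19Rik fell by 1.39-fold to 3.30-fold. Pygl, liver glycogen phosphorylase, measured 11299, 12514 and 14565 in KO and 16826 to 26748 in WT, median 22712 (1.76-fold lower, adjusted p = 0.0398), 1 of 23 glucose and glycogen genes called. Rpe, of the pentose phosphate pathway, measured 701, 626 and 699 in KO and 834 to 991 in WT, median 979 (1.39-fold lower, adjusted p = 0.0379), 1 of 8. Apoc3, an inhibitor of triglyceride clearance, measured 18878, 24614 and 20877 in KO and 34525 to 43276 in WT, median 35840 (1.73-fold lower, adjusted p = 0.0137), 1 of 18 apolipoprotein genes. C730036E19Rik, listed in RefSeq as lncLSTR, a liver noncoding RNA known in triglyceride metabolism, was named after its values were seen: it measured 319, 317 and 667 in KO and 989 to 1988 in WT, median 1234 (3.30-fold lower, adjusted p = 0.0422). The 4 genes therefore showed a gap between the lowest WT liver and the highest KO liver. Leaving out any 1 liver other than WT 6 ended the call of Pygl and Rpe (adjusted p up to 0.171 and 0.179). That of C730036E19Rik was lost without any 1 liver other than WT 6 or KO 6 (up to 0.203), and that of Apoc3 without KO 3 or KO 6 (up to 0.0626).

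Mup3, Mug2 and C8g, which encode secreted proteins, fell. Mup3, a major urinary protein whose transcripts follow growth hormone and age, measured 603, 85.7 and 229 in KO 3, KO 5 and KO 6 and 2119 to 5852 in WT, with a median of 3755. The highest KO liver was well below the lowest WT liver, and Mup3 fell 16.2-fold (log2 −4.02, SE 0.52, adjusted p = 0.0137). It was 1 of 5 tested genes of its family, all with lower means, and near copies there can exchange reads. Mup20 measured 169, 18.8 and 33.8 in KO and 134 to 484 in WT, median 260 (adjusted p = 0.140). Mug2, a murinoglobulin, a protease inhibitor of plasma, measured 4816, 3140 and 3637 in KO and 8182 to 12794 in WT, median 10577 (2.73-fold lower, SE 0.16 on the log2 scale, adjusted p = 0.00782). The pseudogene Gm10319 beside it, named after its values were seen, fell 2.88-fold and may share its reads. C8g, a chain of complement component 8, fell 1.47-fold (adjusted p = 0.0403).

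Ces3a, a carboxylesterase of lipid droplets, measured 651, 1219 and 2836 in KO and 3845 to 16715 in WT, median 12142. It fell 7.77-fold (log2 −2.96, SE 0.53, adjusted p = 0.0477), 1 of 13 carboxylesterase genes tested. Its neighbour Ces3b measured 39.1, 50.9 and 127 in KO and 153 to 3524 in WT, median 1400 without overlap (adjusted p = 0.0756), and the pair can share reads. The other KO livers were lower for both, at 61.6 to 234 and 1.93 to 7.25. Ces3a passed with all 6 KO livers (adjusted p = 0.00688) but was lost without WT 1, WT 2, WT 3, WT 5, KO 3 or KO 5 (up to 0.193).

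Among cytochrome P450 genes, Cyp2j5, an epoxygenase, had the steadiest fall. It measured 4582, 4119 and 4910 in KO and 7857 to 10780 in WT, median 9920 (2.11-fold lower, log2 SE 0.11, adjusted p = 0.00416). The other KO livers lay at 2175 to 2670, below all chosen KO livers. Cyp2f2, a marker of periportal hepatocytes, measured 7174, 3064 and 4573 in KO and 11822 to 15150 in WT, median 13196 (2.84-fold lower, adjusted p = 0.0137), the 1 call among 14 periportal genes. Cyp2d40 fell 2.26-fold (adjusted p = 0.0403). Nudt7, a peroxisomal coenzyme A hydrolase, measured 3306, 1879 and 2731 in KO and 4402 to 6679 in WT, median 5632 (2.19-fold lower, adjusted p = 0.0287), 1 of 17 male-biased liver genes called. Sdr9c7, a retinol dehydrogenase family member, fell 2.29-fold (adjusted p = 0.0137). Calls were lost without KO 6 for Cyp2f2 (adjusted p = 0.0607), without KO 3 or KO 5 for Sdr9c7 (up to 0.0855), without any 1 liver other than WT 6 or KO 6 for Cyp2d40 (up to 0.164), and without WT 1, WT 3, WT 4, WT 5, KO 5 or KO 6 for Nudt7 (up to 0.107). For C8g the same was seen without any 1 liver other than WT 1 or WT 6 (up to 0.154), and for Gm10319 without KO 3 or KO 5 (up to 0.0855).

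Ntrk2, Ptgds, Hapln4, Col4a3 and Celsr1 fell, and none of them is in a list tested here. Ntrk2, the receptor of brain-derived neurotrophic factor, measured 91.0, 142 and 46.6 in KO and 419 to 1178 in WT, median 644 (8.15-fold lower, log2 SE 0.40, adjusted p = 0.0137). Ptgds, a prostaglandin D synthase, measured 23.0, 8.48 and 17.4 in KO and 53.5 to 95.6 in WT, median 74.1 (4.43-fold lower, adjusted p = 0.0137). Hapln4, a hyaluronan link protein, measured 74.0, 33.9 and 56.6 in KO and 130 to 208 in WT, median 172 (3.22-fold lower, adjusted p = 0.0137). For these 3 genes the highest KO liver stayed well under the lowest WT liver. Col4a3, a basement membrane collagen, measured 85.0, 74.4 and 99.5 in KO and 146 to 312 in WT, median 243 (2.64-fold lower, adjusted p = 0.0359), and 19.8 to 24.1 in the other KO livers. Celsr1, a planar polarity cadherin, fell 2.98-fold (adjusted p = 0.0398). Of 21 collagen and matrix genes in the list for these, which holds neither Hapln4 nor Col4a3, limma called 0, with 3 at an unadjusted p under 0.05, edgeR 0 and DESeq2 1, Col15a1.

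Wfdc2, a secreted protease inhibitor domain protein, measured 50.2, 50.9 and 51.1 in KO, nearly one level, and 92.9 to 153 in WT, median 141 (2.55-fold lower, adjusted p = 0.0122). Pkhd1, the fibrocystin gene of bile duct cilia, fell 1.66-fold (adjusted p = 0.0309), 1 of 7 tested cholangiocyte markers. Of these 7 markers, 6 had lower means. An unadjusted p under 0.05 was seen for 3, all lower (42.9%, against 12.4% of all genes). The sum of that list ran from 2080 to 2844 in WT and from 1496 to 2119 in KO, and its part in the Pkhd1 result was not tested. Bach2 and Zap70, a repressor and a kinase of lymphocytes, fell 2.43-fold and 2.40-fold (adjusted p = 0.0137 and 0.0451). In the other KO livers Bach2 ran from 63.2 to 184 and overlapped WT (132 to 220). Lymphocyte markers, 8 tested with sums of 225 to 419 in WT and 304 to 391 in KO, had 0 calls by limma, edgeR and DESeq2 and 0 at an unadjusted p under 0.05. Single livers decided several calls. They were lost for Ntrk2 without KO 3 (adjusted p = 0.0523), for Ptgds and Wfdc2 without KO 5 (0.0522 for each), and for Bach2 without KO 3 or KO 5 (up to 0.0630). Omission of any 1 liver other than WT 6 did so for Celsr1 (up to 0.135), other than WT 1 or WT 6 for Col4a3 and Zap70 (up to 0.171 for each), and other than WT 4 or WT 6 for Pkhd1 (up to 0.156).

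**Figure D3:**
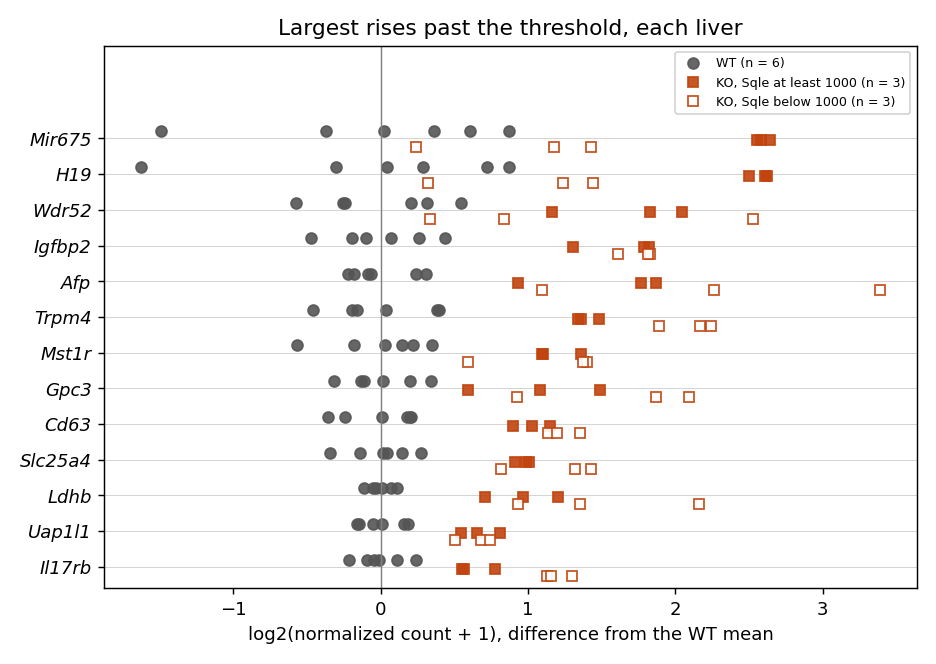
The same measure for the 13 called rises whose mean was 50 or more. The filled squares of the 3 chosen KO livers lie right of all 6 WT circles in each row; for H19 and Mir675 they also lie right of the open squares of the other KO livers.

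H19, Afp and Gpc3, transcripts of the fetal liver, rose. Of 13 such genes tested, these 3 rose (0.125% of all genes did) and 0 fell, with a median log2 difference of 0.97. Since the list was chosen with earlier results of these data known, the share of all genes is no test of it. H19, an imprinted noncoding RNA that is silenced after birth, measured 66524, 72242 and 71639 in KO 3, KO 5 and KO 6. WT livers ran from 3808 to 21481, with a median of 13217. The chosen KO livers were close to each other, whereas the other KO livers, at 14681 to 31915, reached into the WT range. H19 rose 5.97-fold (log2 2.58, SE 0.45, adjusted p = 0.0422). Mir675, inside H19 and not independent of it, measured 5123, 5463 and 5232 in KO and 310 to 1597 in WT, median 1004 (6.03-fold higher, adjusted p = 0.0309). Both calls were lost without WT 2, WT 3, KO 3, KO 5 or KO 6 (adjusted p up to 0.171 and 0.149). With all 6 KO livers the adjusted p was 0.0480 for H19 and 0.0482 for Mir675.

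Igf2, the fetal growth factor gene that shares an imprinted domain with H19, measured 541, 968 and 711 in KO and 98.1 to 437 in WT, median 303. The groups did not overlap, yet the difference did not pass (log2 1.53, SE 0.45, adjusted p = 0.225). Igf2 was named after its values were seen, and so were Tff3 and Bex1 below. Of 17 imprinted genes tested, H19 passed and 16 had higher means, with a median of 0.18. Cdkn1c and Igf2r gave log2 differences of 0.28 and 0.07 (adjusted p = 0.503 and 0.762).

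Afp, alpha-fetoprotein, the main plasma protein of the fetus, measured 254, 487 and 454 in KO and 114 to 165 in WT, median 126. It rose 2.87-fold (log2 1.52, SE 0.21, adjusted p = 0.0137), and the other KO livers lay between 285 and 1397. Gpc3, an oncofetal proteoglycan on the X chromosome, measured 912, 1283 and 1701 in KO and 485 to 768 in WT, median 586 (2.08-fold higher, adjusted p = 0.0487). Tff3 measured 2694, 732 and 785 in KO and 176 to 447 in WT, median 358, and Bex1 93.5, 59.4 and 58.4 against 9.53 to 38.8, without overlap (adjusted p = 0.103 and 0.0877). Zhx2, a known repressor of Afp, H19 and Gpc3, measured 349, 331 and 337 in KO and 374 to 488 in WT, median 395 (log2 −0.28, adjusted p = 0.291). It was 1 of 4 such repressor genes, of which limma, edgeR and DESeq2 called 0, with 1 at an unadjusted p under 0.05. Afp lost its call without KO 5 or KO 6 (adjusted p up to 0.0913) and Gpc3 without WT 2, WT 3, WT 4, WT 5, KO 5 or KO 6 (up to 0.196).

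Igfbp2, which binds insulin-like growth factors in plasma, measured 30249, 31050 and 21646 in KO 3, KO 5 and KO 6 and 6320 to 11848 in WT, median 8694. The lowest KO liver was well above the highest WT liver, and the other KO livers lay at 26805 to 31115, in the same range as the chosen ones. The rise was 3.11-fold (log2 1.64, SE 0.19, adjusted p = 0.0122; lost without KO 5, at 0.0522). Of 12 genes of the growth factors and their binding proteins, Igfbp2 was the only call in the 9 livers. Igf1 measured 5998, 9840 and 12892 in KO and 6159 to 26646 in WT, median 18083 (log2 −0.78, adjusted p = 0.481). Igfbp1, which follows fasting and insulin, ran from 9572 to 47869 in KO and from 200 to 12600 in WT, median 3797 (adjusted p = 0.375). Among 9 genes of growth hormone signalling limma, edgeR and DESeq2 called 0, and 0 had an unadjusted p under 0.05. Socs2, induced by the hormone, ranged from 61.2 to 2596 in WT, median 528 alone.

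**Figure D4:**
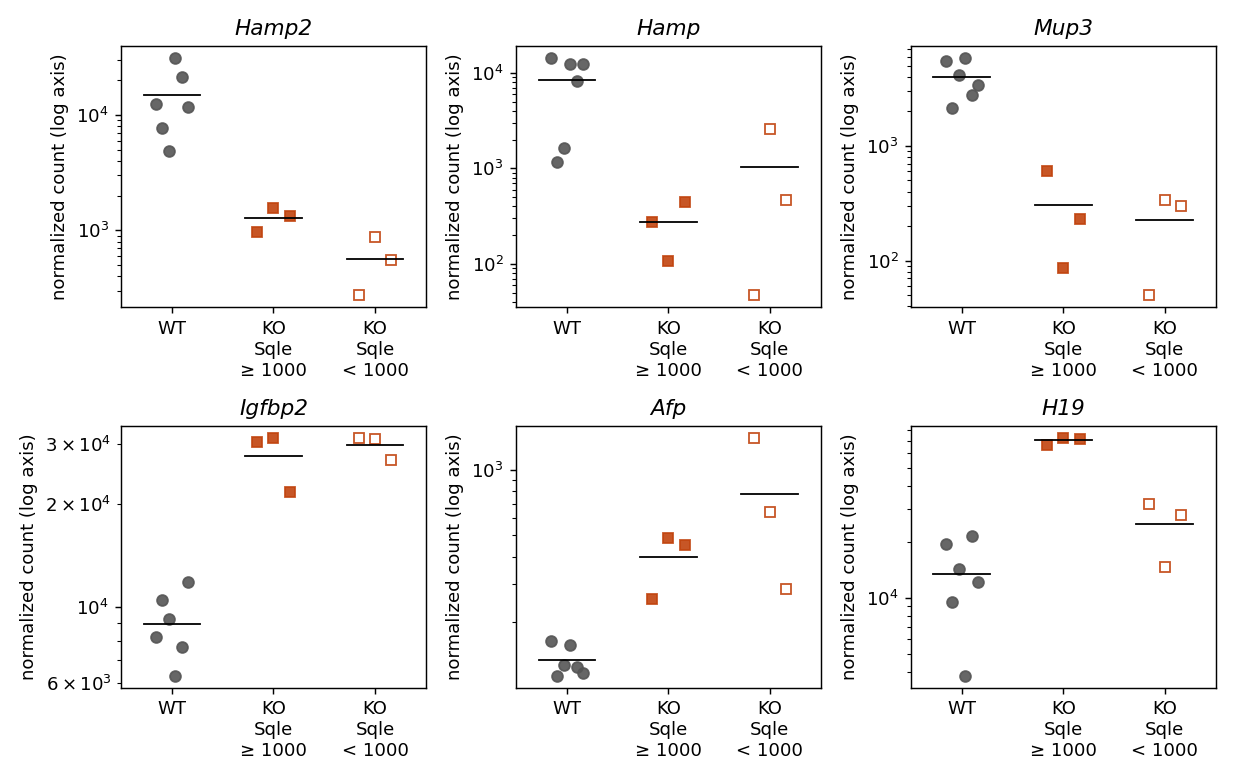
Normalized counts of 6 genes on log axes in each liver; bars are group means of 6 WT, 3 chosen KO and 3 other KO livers. Hamp2 and Mup3 are low and Igfbp2 and Afp high in both KO groups; Hamp overlaps WT in the other KO livers only, and H19 is highest in the chosen KO livers.

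The remaining rises were of low or moderate transcripts. Trpm4, a calcium-activated cation channel, measured 205, 188 and 186 in KO and 52.7 to 96.3 in WT, median 69.9 (2.63-fold higher, adjusted p = 0.0137). Cd63, a tetraspanin of late endosomes, measured 901, 822 and 978 in KO and 344 to 509 in WT, median 471 (2.04-fold higher, adjusted p = 0.0137). Slc25a4, the muscle-type mitochondrial ADP/ATP carrier, measured 1730, 1755 and 1642 in KO and 688 to 1052 in WT, median 890 (1.96-fold higher, adjusted p = 0.0122). Each of these 3 genes had KO livers close together and above all WT livers. Ldhb, the heart-type lactate dehydrogenase chain, measured 161, 192 and 226 in KO and 90.4 to 106 in WT, median 97.1 (1.95-fold higher, adjusted p = 0.0137). Mst1r, the receptor of macrophage-stimulating protein, rose 2.28-fold and Il17rb, an interleukin receptor chain, 1.55-fold (adjusted p = 0.0398 and 0.0491). Uap1l1 and Wdr52 rose 1.59-fold and 3.20-fold (adjusted p = 0.0359 for each). In the other KO livers Wdr52 ran from 44.5 to 207 and overlapped WT (23.3 to 51.7).

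Low transcripts, named after their values were seen, included Cacna1b, a neuronal calcium channel, which measured 58.7, 97.0 and 79.5 in KO and 8.92 to 27.2 in WT, median 13.2 (adjusted p = 0.0165). Cxcl14, a chemokine, measured 0, 1.88 and 0 in KO and 8.23 to 25.7 in WT, median 15.8 (adjusted p = 0.0137). Among these rises and falls, the call was lost for Slc25a4 without KO 5 (adjusted p = 0.0597), for Cxcl14 without KO 3 or KO 6 (up to 0.0605), for Ldhb and Cacna1b without KO 5 or KO 6 (up to 0.0855 and 0.126), and for Trpm4 and Cd63 without any 1 of the KO livers (up to 0.0913 and 0.0626). Mst1r and Il17rb lost it without any 1 liver other than WT 4 or WT 6 (up to 0.154 and 0.171), and Uap1l1 without any other than WT 6 (up to 0.120). Wdr52 lost it without WT 2, WT 3, WT 4, WT 5, KO 5 or KO 6 (up to 0.171).

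**Figure D5:**
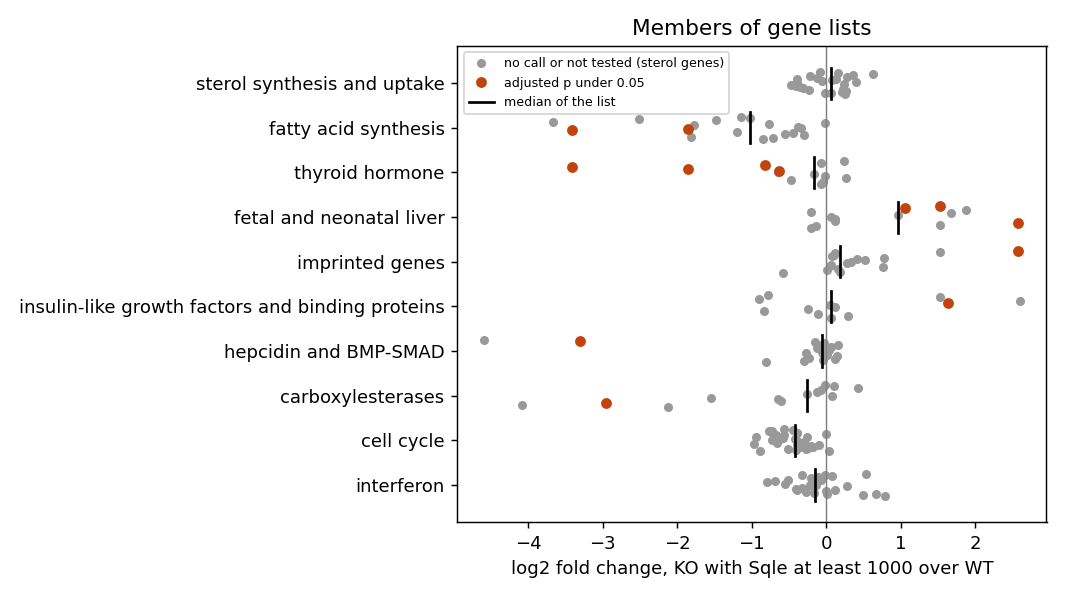
Log2 fold change of each tested member of 10 gene lists, chosen KO over WT; red points passed the threshold, grey points did not or, for sterol genes, were not tested, and black bars are list medians. The sterol list sits around 0.06 while all 19 fatty acid synthesis genes lie below 0.

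Values of some lists without a call by limma follow. Shares at an unadjusted p under 0.05, 12.4% over all genes, were also large in several lists not described further. They were 53.3% of 15 retinoid genes (3 higher, 5 lower) and 42.9% of 14 glucocorticoid response and metallothionein genes (2 higher, 4 lower). For 26 genes of fatty acid oxidation and ketogenesis the share was 30.8% (7 higher, 1 lower). Of 34 cell cycle genes 32 had lower means, with a median of −0.41, and the 8 condensin genes were all lower, with a median of −0.44. For cell cycle genes limma, edgeR and DESeq2 called 0, with 5 at an unadjusted p under 0.05 (14.7% against 12.4% of all genes). For the condensin genes they also called 0, with 4 of 8 (50%) at an unadjusted p under 0.05. In both lists all the genes at such a p were lower. Rrm2, a ribonucleotide reductase subunit, measured 414, 232 and 276 in KO and 250 to 915 in WT, median 618 (log2 −0.96, adjusted p = 0.318). In the other KO livers the cell cycle median was −1.95. Of 28 interferon genes limma called 0, with 4 at an unadjusted p under 0.05, edgeR 0 and DESeq2 2, and the summed level of the list was highest in KO 5 (41759.5), with 18352 for KO 3 and 25700.3 for KO 6. Of 23 acute phase genes limma called 0, with 5 at an unadjusted p under 0.05, edgeR 0 and DESeq2 2. Orm1, an acid glycoprotein of the acute phase, measured 1559, 349 and 2049 in KO and 3405 to 9774 in WT, median 5218, but 3155 to 38552 in the other KO livers (adjusted p = 0.0777, and 0.698 with all 6 KO livers). Of 21 female-biased liver genes limma called 0, with 4 at an unadjusted p under 0.05, edgeR 0 and DESeq2 3.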

How the data were processed

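Liver total RNA of 12 mice was profiled, and 9 livers entered the comparison. The authors deposited normalized counts, a signal of reads per gene divided by 1 size factor per library. The submitters' processing notes list the build mm10 with STAR, featureCounts, FastQC and DESeq2, with neither versions nor order. For the strand setting and the annotation no source used here gives an answer. The authors also deposited a table of log2 fold changes with p-values and adjusted p-values over all 12 livers, and none of its values is printed. Whole reads were recovered from the deposited steps in the 9 livers, where 100% of values came out whole within 0.001 reads. Of 17714 gene rows, 508 equal an earlier row.

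Genes with a mean of at least 10 were tested on log2(normalized count + 1) with limma 3.58.1 in R 4.3.3 (trended empirical Bayes, Benjamini-Hochberg adjustment over all tested genes, threshold 0.05). edgeR 4.0.16 (quasi-likelihood) and DESeq2 1.42.0 on recovered reads were alternatives, calling 54 and 345 genes, and the fits were tested on simulated data. The members and lists were chosen with earlier results of these data known. A test of the chosen against the other KO livers was planned and is not given, since Sqle, which separated them, is part of that contrast. Nothing beyond separate numbers in the titles says how samples were kept apart, so p-values measure the spread between these livers.

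Named genes were those of the targeted locus, the 20 largest rises and falls among called genes whose mean reached 50 and whose groups did not overlap (leaving out Gm, Rik and pseudogene symbols and sterol genes), up to 4 genes with the smallest p among those past the threshold in each list, and the 2 smallest where a list had none. The rule gave 87 genes, and not all of them are described in the text. Any gene named outside the rule was chosen after its values were seen. Positions are from GENCODE M21 on GRCm38, where 57 of the 61 called symbols were found, and sequences from RefSeq GRCm38.p6.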

Additional observations from a re-analysis of the deposited data

Results flagged for a closer look

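Among 87 groups of 6 WT livers checked for a single distant value, 4 had one, and chance gives about 1 in 20, or 4.35. Socs1, a feedback inhibitor of cytokine signalling, measured 25.4 normalized counts in WT 5 and 1.27 to 8.23 in the other WT livers. Ccna2, a cyclin, measured 906 in WT 1 and 310 to 466 in the others. Ifi27, an interferon-induced gene, measured 2040 in WT 4 and 1425 to 1585 in the others. Col15a1, a basement membrane collagen, measured 487 in WT 4 and 162 to 240.0 in the others. None of the distant values was in WT 6, but Adipoq, Cfd and Plin1, given above for that liver, were not among the groups checked.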

How the results depend on the processing

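The count of 61 genes, 17 higher, 44 lower and 58 with a fold of at least 1.5, depended on the fit. Library quality weights gave 136 genes (47 higher, 89 lower, 109 with the fold) and DESeq2 345 (128, 217 and 212). The runs of animal numbers as a block gave 7 (1, 6 and 7), and all 6 KO livers 601 (237, 364 and 362). Robust moderation gave 11 higher genes. Leaving out 1 liver gave 10 to 227 genes, 0 to 75 higher, 10 to 152 lower and 10 to 168 with the fold. No paired analysis was possible because the replicate numbers follow accession order only, and the labels do not call a run a batch. Of the 61 genes, 6 were called with the block, 50 by edgeR and 61 by DESeq2. Med28 changed sign with all 6 KO livers (log2 −0.0061, adjusted p = 0.967). Among values of single genes under 23 settings, 1700 kept direction and side of the threshold, 210 lost their call, 61 gained one and 1 reversed. Equal totals or equal upper quartiles moved the median of all genes from 0.003 to 0.01 or 0.02. Counting equal rows once was chosen after seeing the data and gave 61. Of the 61 genes, 7 had a mean under 50 normalized counts.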
